A study of Homo sapiens with 2 samples.

Results

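The shorter of the 2 terminal exons of a transcript, where it was long enough to hold 6 or more sequencing windows, was examined for N6-methyladenosine (m6A) in the lymphoblastoid cell line GM12878. In the table used here each exon is cut into windows of 100 nt placed every 50 nt, and windows are numbered along the exons of a named gene. A gene was taken when its longest listing had 3 or more exons and its mean scaled input coverage was at least 1, which left 9008 genes, called measured genes below. Exon 1 and the highest-numbered exon were compared by length, and the shorter was kept when it held 6 or more windows. This left 3612 exons with 35441 windows, of 3335372 windows in all. In 5201 further measured genes the shorter terminal exon had fewer than 6 windows, and in 195 the terminal exons tied.

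The study had 1 immunoprecipitated (IP) library and 1 input library. GM12878 is a human lymphoblastoid line, B cells made to grow in culture by Epstein-Barr virus, and stands for a single line, with no treatment before RNA was taken in either group as far as the labels say. In the IP library, RNA fragments were recovered with an m6A antibody, and the input library holds fragments before that step. With 1 library of each kind no comparison of IP with input could be checked against replicates. The intervals given below are exact (Clopper-Pearson) 95% intervals for counting error only, in windows that overlap and reads that may be PCR copies.

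The labels disagree on the source: one field says mouse embryonic stem cells, and others give Homo sapiens and GM12878. All 10 of 10 B cell markers were measured in the input, at a mean coverage of 3.0 to 775 with CD74 highest, and 0 of 8 pluripotency markers were, of which SOX2 was highest at 0.153. In bulk RNA, few cells of a type and little RNA per cell cannot be told apart. Of the markers of other cells, 3 of 8 for T cells (TRAC highest at 26.4), 1 of 6 for myeloid cells, 1 of 6 for fibroblasts and 0 of 5 for erythroid cells were measured. Coverage of the transcripts kept corresponded to 56.9 M reads in the IP and 50.3 M in the input. The shorter terminal exons held 3.32% of it in the IP and 3.33% in the input.

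m6A is placed on messenger RNA by a nuclear complex built around METTL3 and METTL14, mostly at adenosines within a short motif centred on GGAC, and is known from many cell types to be dense in long exons and around stop codons. The first exon begins with the cap and usually holds the 5′ untranslated region and the start codon, and the last exon usually holds the stop codon and the 3′ untranslated region. Antibodies against m6A also bind m6Am, a related mark that the enzyme PCIF1 places on an adenosine directly after the cap, so the base at which a transcript starts bears on what such an antibody can recover from a first exon.

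The window score that the authors deposited is the log2 ratio of the IP value to its gene median, less the same for the input, with 1 added to each value. A score of 0 is thus the level of the gene itself, and a score of 2 is 4-fold over it. A window at 2 or more is called enriched, a run of 2 or more enriched windows within an exon is called a region, and the exon-level score is the highest mean of 2 consecutive windows. Members were chosen by exon length and input coverage, not by the IP, but the input is also part of the score. Exons of 5 windows, just too short, had a region in 11 of 1142 cases, and those of 6 windows, just long enough, in 8 of 863. Genes with an input of 1 to 1.1 had one in 7 of 85 exons, and genes at 0.9 to 1, just too low, in 8 of 87.

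Exon numbers in the table run from left to right along the chromosome, so the transcript's direction had to come from elsewhere. Of the member genes, 2859 (79.2%) could be given a strand through the RefSeq promoter table. The shorter terminal exon was the first exon of the transcript, at the 5′ end, in 2569 genes and the last, at the 3′ end, in 290, while 753 stayed unassigned. The shorter terminal exons of 6 or more windows are therefore mostly long first exons.

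To show what starts such an exon, the RefSeq start sites of 8 genes are given, because the score of the outermost window is compared by first base further on. For transcripts starting with A and with C they are the 4 genes with the highest score in the outermost window lying wholly inside the exon, among those with an input of at least 5 there, so their values were used to choose them. The sequences are from RefSeq on GRCh38.p14 and run 5′ to 3′ on the transcript's strand. The capital marks the first transcribed base, with 10 bases before it and 19 after it.
PAFAH1B1: ctcctgtgacAgacggagctggagcggcgg
RPRD2: cgtgcgcgatActgttgctgcccctttgct
GOLPH3: cggggccgccAtattggaaaggcgccgccg
ABT1: aaggcactttAcggccgtcgtgccgctcgt
STRAP: gcgtcatttaCgtcgtcacttcctgccgat
TOP1: gcagtgagccCaaatgcgaacttaggctgt
PTGES3: gccgcccggcCtcaccacccctcgtttgca
KDELR1: tctcctccctCttcccggctccagctccgc

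The starts that open with A lie at chr17:2593644-2593673 on the plus strand for PAFAH1B1, chr1:150364137-150364166 on the plus strand for RPRD2, chr5:32174300-32174329 on the minus strand for GOLPH3 and chr6:26596943-26596972 on the plus strand for ABT1. The outermost window of PAFAH1B1, a regulator of the dynein motor, had 25.3 in the IP against 5.14 in the input, a score of 2.44. RPRD2, which binds RNA polymerase II, had 48.5 in the IP against 10.2 in the input, a score of 2.23. GOLPH3, a Golgi phosphoinositide-binding protein, had 31.8 in the IP against 7.23 in the input, a score of 2.14, and ABT1, a nucleolar protein, 26.0 in the IP against 7.07 in the input, a score of 1.97. These 4 were chosen for the highest scores in this window, where 67 exons starting with A had an input of at least 5, and 3 of the 4 passed a score of 2.

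The starts that open with C lie at chr12:15882377-15882406 on the plus strand for STRAP, chr20:41028812-41028841 on the plus strand for TOP1, chr12:56688265-56688294 on the minus strand for PTGES3 and chr19:48391532-48391561 on the minus strand for KDELR1. STRAP, a component of the SMN complex, had 29.7 in the IP against 15.5 in the input, a score of 1.65. TOP1, which encodes topoisomerase I, had 24.6 in the IP against 8.50 in the input, a score of 1.59. PTGES3, a co-chaperone of HSP90, had 36.1 in the IP against 24.4 in the input, a score of 1.23, and KDELR1, a receptor that returns proteins to the endoplasmic reticulum, 85.3 in the IP against 55.4 in the input, a score of 1.12. No gene starting with C and an input of at least 5 reached a score of 2 in this window, STRAP being the highest. Such exons numbered only 28, fewer than with A, so the highest scores of the 2 sets do not compare the bases.

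The first comparison was how often the shorter terminal exon was enriched. Of its windows, 1450 (4.09%, interval 3.89 to 4.30) scored 2 or more, against 12437 of 141861 (8.77%) in the longer terminal exon of the same genes and 4211 of 122974 (3.42%) in their internal exons. Over all windows of measured genes the share was 5.6%. A region was found in 275 of the 3612 exons (7.61%, interval 6.77 to 8.53), against 1597 of the 3612 longer terminal exons (44.2%) and 587 of 35486 internal exons of the same genes (1.65%). Over all exons of 6 or more windows in measured genes, of every class, 29.5% held a region. The classes differ in length, which is taken up next.

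Length went with a steep change. A region was found in 74 of 2658 shorter terminal exons of 6 to 10 windows (2.78%), in 132 of 803 of 11 to 20 windows (16.4%) and in 59 of 118 of 21 to 40 windows (50%, interval 40.7 to 59.3). The longer terminal exons of the same genes had a region in 9.75%, 29.8% and 44.0% of exons at those lengths, and internal exons in 9.67%, 60.1% and 78.2%. Up to 20 windows the shorter terminal exon thus stood below both other classes, and at 21 to 40 windows it overlapped the longer terminal exon within the intervals and stayed below internal exons.

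**Figure D1:**
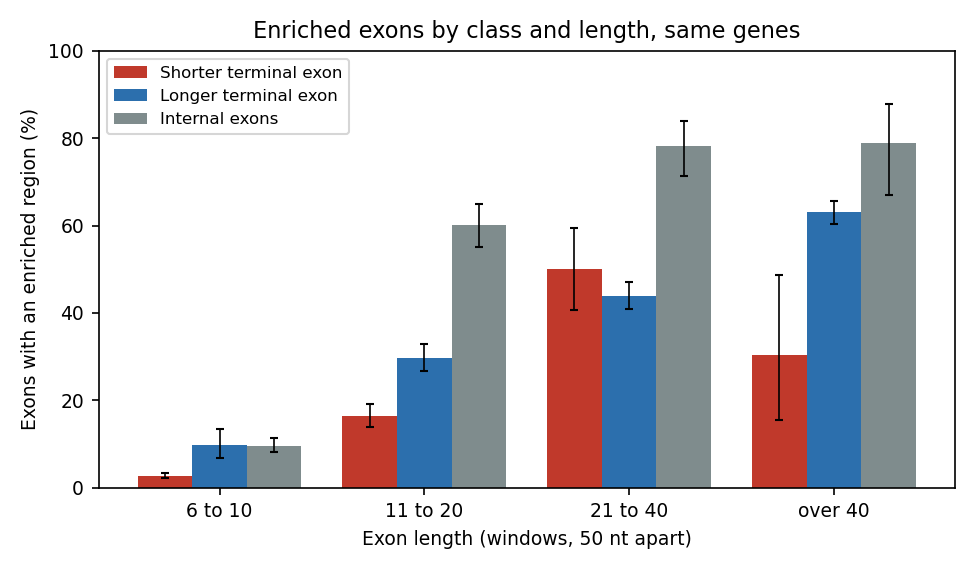
Percentage of exons with an enriched region (vertical axis) by exon length in windows (horizontal axis) for shorter terminal, longer terminal and internal exons of the same genes, with bars for the share and lines for exact 95% counting intervals. The shorter terminal exon goes from 2.78% at 6 to 10 windows to 50% at 21 to 40, and drops to 30.3% over 40 windows, where 22 of 33 exons are a single exon listed under as many names.

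Above 40 windows only 10 of 33 exons (30.3%) had a region, and most of that group was one exon. The protocadherin gamma genes, cell adhesion genes that splice different first exons to common last exons, contributed 22 names with the same 41-window exon, with a mean of 4.96 in the IP and 3.23 in the input under every name. None of the 22 names had a region, with exon-level scores of 0.31 to 1.55, since the gene medians under each name differ. Of the other 11 exons over 40 windows, 10 had a region. In all, 156 member exons shared at least 50% of their coverage values with another name, 7 of them with a region, and without them the share with a region was 268 of 3456 (7.75%).

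Coverage was low at many of these exons. Over exons the median IP value was 2.83 and the median input 2.43, against 7.74 in the IP and 3.43 in the input for the longer terminal exon of the same genes, and 912 exons (25.2%) had a mean input under 1. The last 2 windows of an exon, on its higher-numbered side, also reach past its edge. Shares were therefore also taken over windows wholly inside the exon with an input of at least 5, of which 10.5% were enriched over all measured genes. On that basis 7.76% of windows of shorter terminal exons were enriched, against 14.6% in longer terminal exons and 6.93% in internal exons of the same genes.

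With that restriction the shorter terminal exon again had the lowest share of the classes up to 20 windows. At 6 to 10 windows 3.52% (interval 2.96 to 4.14) of windows of the shorter terminal exon were enriched, against 6.03% (4.64 to 7.68) in the longer terminal exon and 6.21% (5.42 to 7.08) in internal exons. At 11 to 20 windows it was 10.4% (9.17 to 11.7) against 14.3% and 34.4% (32.3 to 36.5). At 21 to 40 windows the shorter terminal exon, at 22.6% (19.4 to 26.1), stood above the longer terminal exon at 13.7% (13 to 14.4) and below internal exons at 32.6%. From 11 to 20 to 21 to 40 windows the share was higher only in the shorter terminal exon, by this measure. The intervals take windows as independent, and neighbouring windows share reads, so they are too narrow.

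The second comparison was between the ends of the transcript. At the 5′ end 159 of 2569 exons had a region (6.19%, interval 5.29 to 7.19), and at the 3′ end 50 of 290 (17.2%, interval 13.1 to 22.1). Among exons without an assigned strand it was 66 of 753 (8.76%). Without exons listed under several names the shares were 158 of 2486 (6.36%) at the 5′ end and 50 of 267 (18.7%) at the 3′ end. First exons also had less coverage, with a median window at 1.5 in the IP and 1.39 in the input, against 4.93 in the IP and 3.92 in the input for last exons.

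The same order held within each length class up to 40 windows. At 6 to 10 windows 39 of 1928 first exons (2.02%) and 15 of 184 last exons (8.15%) had a region. At 11 to 20 windows it was 81 of 563 first exons (14.4%) and 23 of 69 last exons (33.3%), and at 21 to 40 windows 35 of 74 first exons (47.3%) and 10 of 15 last exons (66.7%). Among exons with a mean input of at least 5 3.11% of first exons and 7.92% of last exons had a region at 6 to 10 windows, and 24.4% of first exons and 38.9% of last exons at 11 to 20 windows. At 21 to 40 windows that left 10 of 14 first exons (71.4%) and 2 of 2 last exons.

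Over well covered windows wholly inside the exon, the 3′ end stood higher at 6 to 10 windows and, with intervals that barely miss each other, at 11 to 20 windows. At 6 to 10 windows 2.71% (interval 2.12 to 3.42) of windows were enriched at the 5′ end and 6.64% (4.72 to 9.04) at the 3′ end. At 11 to 20 windows the shares were 9.56% (8.13 to 11.2) at the 5′ end and 14.5% (11.2 to 18.3) at the 3′ end. At 21 to 40 windows the 5′ end had the higher share, 27.5% (23.1 to 32.2), against 15.7% (9.24 to 24.2) at the 3′ end, with overlapping intervals.

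The longer terminal exon of measured genes, split the same way, gave 1.52%, 10.9% and 16.4% of windows at the 5′ end and 6.54%, 14.1% and 13.2% at the 3′ end, in the order of length. A shorter and a longer terminal exon of the same end and length class up to 20 windows thus overlapped within their intervals. First exons of 21 to 40 windows had a higher share of enriched windows as the shorter terminal exon than as the longer one. These windows came from only 48 shorter and 42 longer exons, and neighbouring windows share reads. Counted by exon, 35 of 74 shorter and 23 of 59 longer first exons of that length had a region, with overlapping intervals. A difference was thus seen over windows and not resolved over exons.

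**Figure D2:**
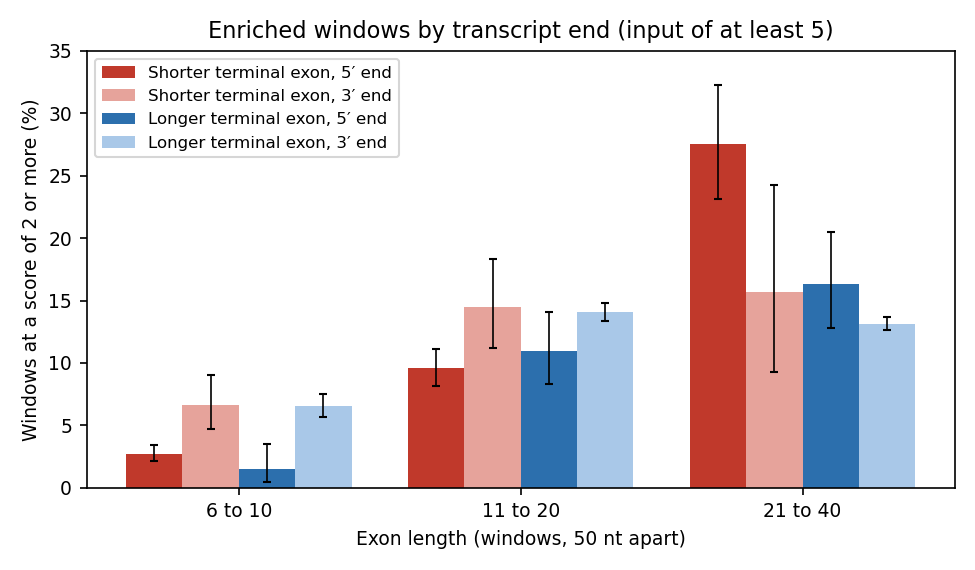
Percentage of windows at a score of 2 or more (vertical axis) by exon length (horizontal axis), for shorter and longer terminal exons at the 5′ and 3′ ends, over windows wholly inside the exon with an input of at least 5, with exact 95% counting intervals. First exons are lowest at 6 to 10 windows (2.71% and 1.52%), and shorter first exons of 21 to 40 windows are highest at 27.5%.

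The third comparison was position within the exon, in exons of 11 or more windows. In first exons enrichment was lower beside the splice junction than further in. Among windows starting 0 to 100 nt from the inner edge, 5.10% (interval 4.16 to 6.18) were enriched, against 8.37% (7.17 to 9.70) at 150 to 250 nt and 8.27% at 300 to 450 nt. With an input of at least 5 the shares were 7.48% (5.59 to 9.77), 13.6% (10.7 to 17.1) and 16.3% (13.1 to 19.98). Median input ran the other way, from 3.12 over the first distance to 1.36 over the third, and its part in the pattern over all windows was not tested.

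From the outer edge of first exons, at the transcript start, the shares over all windows were 4.68%, 5.77% and 6.14% at the same distances. With an input of at least 5 the order turned, to 11.7% (8.16 to 16), 7.49% and 7.30%, with wide intervals. In last exons the share was 7.23% within 0 to 100 nt of the inner edge, 17.0% at 150 to 250 nt and 8.78% at 300 to 450 nt, and with an input of at least 5 it was 8.86%, 26.4% and 12.1%. The 106 last exons count the protocadherin gamma exon once for each name, and without exons listed under several names the 85 left had 9.02%, 21.2% and 11.04%. Both kinds of exon were thus less often enriched next to the junction than at 150 to 250 nt from it.

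**Figure D3:**
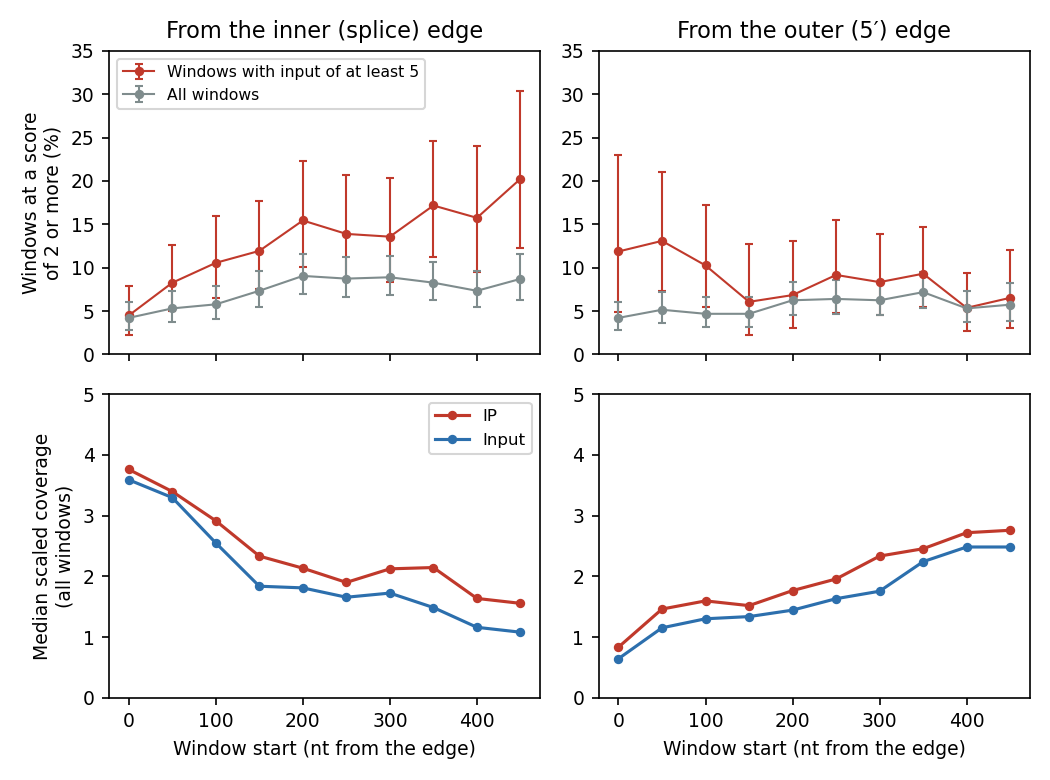
First exons of 11 or more windows: the upper panels give the percentage of windows at a score of 2 or more, with exact 95% counting intervals, and the lower panels median IP and input coverage, against the distance of the window in nt from the inner (splice) edge and from the outer (5′) edge. From the inner edge the share over all windows goes from 5.10% at 0 to 100 nt to 8.37% at 150 to 250 nt, and median coverage falls toward the transcript start.

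Peaks were spread along the exon. The peak lay a median of 300 nt from the inner edge and 350 nt from the outer edge over the 275 exons with a region, with the same medians in first exons and medians of 250 and 325 nt in last exons. The peak fell under 150 nt from the inner edge in 35 of the 275 (12.7%, interval 9.03 to 17.3) and under 150 nt from the outer edge in 56 (20.4%, interval 15.8 to 25.6). Of all windows of these exons 16.9% lie that close to each edge, which is within both intervals.

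Within the 275 exons there were 323 regions, and 236 exons had 1, 33 had 2 and 6 had 3 or more. Regions had a median of 3 windows. Peak windows had a median IP value of 48.1 (quartiles 22.4 and 92.7) and a median input of 4.02 (quartiles 2.26 and 8.86). The median exon-level score was 2.82, with 111 exons at 3 or more, 43 at 4 or more and 14 at 5 or more. In 60 exons at least 50% of the windows were enriched. At 23 peaks (8.36%) the input was under 1, where the number added before the logarithm weighs most.

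Among the exons named here, which do not include every exon with a high score, WNK1 had the highest exon-level score. It encodes a kinase that regulates ion transport, and its first exon of 29 windows had 14 enriched windows in 2 regions. The score was 5.57, and its peak window had 2078 in the IP against 39.2 in the input, with a score of 5.63 (counting interval 5.50 to 5.76). The IP climbed from 293 at 700 nt from the outer edge to that peak at 800 nt and was 239 at 950 nt, while the input stayed between 20.1 and 39.2 over these windows. A second region near the inner edge reached 298 in the IP against 13.9 in the input within the exon, before the last 2 windows, which reach past it. WNK1 had gene medians of 12.1 in the IP and 11.5 in the input, and its exon-level score without centring was 5.63. Each library has its own scale, so these medians do not show whether the gene as a whole was enriched.

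DEAF1, a transcription factor that regulates tissue antigens in lymphoid tissue, scored 5.57 in a last exon of 9 windows, of which 6 were enriched. Its peak had 430 in the IP against 9.25 in the input, at 150 nt from the outer edge. Its longer terminal exon, of 20 windows, held no region and scored 1.54.

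LEMD3, an inner nuclear membrane protein that restrains SMAD signalling, had the longest run, 19 windows, and 22 enriched windows of 31 in its first exon. Its peak, at 1050 nt from the outer edge, had 236 in the IP against 7.63 in the input. Its exon-level score, 5.04, came from the last 2 windows, which reach past the exon and also belong to the long run. They had 67.9 and 40.8 in the IP against 1.54 and 0.57 in the input. Its longer terminal exon of 44 windows held no region, at a score of 1.32.

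CPEB4, which binds cytoplasmic polyadenylation elements in 3′ untranslated regions, had a first exon of 51 windows with 13 enriched in 2 regions. The first, at 250 to 500 nt from the outer edge, peaked at 83.8 in the IP against 1.90 in the input, and the second, at 1050 to 1350 nt, reached 29.4 in the IP against 3.93 in the input. The exon-level score was 5.09, and the longer terminal exon of 89 windows held no region, at 0.99.

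**Figure D4:**
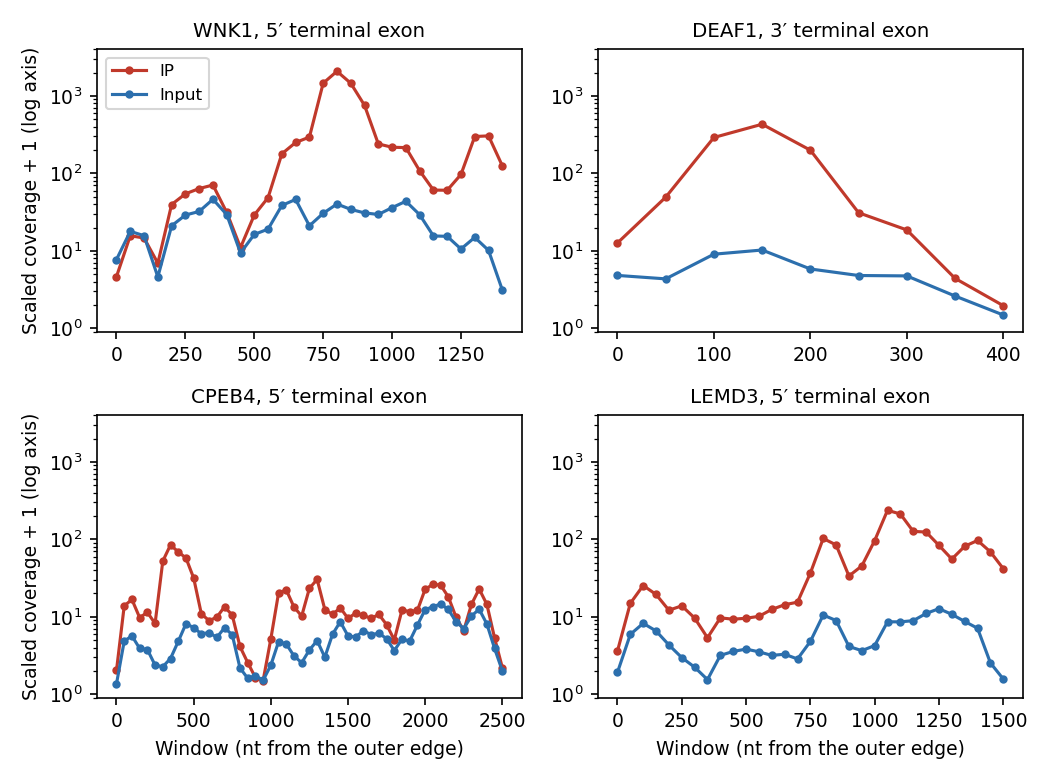
Scaled coverage plus 1 (vertical log axis) in the IP and input libraries along 4 shorter terminal exons, each point a window, by distance in nt from the outer edge. The IP of WNK1 peaks at 2078 against an input of 39.2, DEAF1 has a single peak of 430, and CPEB4 and LEMD3 have several.

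In 3 other first exons with high scores fewer reads lay behind the value. SLMAP, a tail-anchored membrane protein, scored 5.34 in a first exon of 9 windows, with 87.1 in the IP against 1.27 in the input at its peak. CAB39, a scaffold of the LKB1 kinase complex, scored 5.18 in a first exon of 11 windows, with 53.4 in the IP against 1.13 in the input. KCNN3, a calcium-activated potassium channel, scored 5.06 with 17 of 25 windows enriched, at 80.7 in the IP against 1.39 in the input. The peak input of these exons rested on about 20, 18 and 22 reads.

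FBXL15, an F-box protein of a ubiquitin ligase, scored 5.42 in 7 windows with 414 in the IP against 7.17 in the input. Its gene medians were only 0.60 in the IP and 0.45 in the input, both below the 1 that is added before the logarithm. LIMD1, a LIM domain scaffold protein, scored 5.30 with 18 of 30 windows enriched and 252 in the IP against 4.73 in the input. FAM72B scored 5.16 with 475 in the IP against 13 in the input. It has near-identical family copies, so its reads may belong to another copy.

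The longest exons named carried several regions each. ARHGAP35 had 19 enriched of 74 windows in 4 regions and scored 3.38, with 66.7 in the IP against 2.51 in the input at its peak. VCPIP1, a deubiquitinase that works with VCP, had 31 of 60 windows enriched in 5 regions and scored 4.53, with 82.0 in the IP against 1.66 in the input.

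Some long and well covered exons held no region. YLPM1, a nuclear RNA-binding protein, scored 0.37 over 20 windows, with a mean of 18.8 in the IP against 11.1 in the input. FSCN1, which bundles actin, scored 1.06 over 20 windows, with a mean of 48.9 in the IP against 79.3 in the input. Its highest window was the last one, which reaches past the exon, with only 8.21 in the IP against 5.80 in the input. Without centring on the gene FSCN1 scored 0.36. RP11-330L19.5 scored 0.82 over 26 windows at 4.77 in the IP against 5.16 in the input, and its gene medians, 0.20 in the IP and 0.25 in the input, are below the 1 that is added.

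The longer terminal exon of a gene was enriched about equally often whether or not the shorter one was. It held a region in 117 of 275 genes with a region in the shorter exon (42.5%, interval 36.6 to 48.6) and in 1480 of 3337 without (44.4%, interval 42.7 to 46.1). An internal exon held one in 45 of those with (16.4%) and in 459 of those without (13.8%). In 137 of the 275 genes (49.8%) no exon besides the shorter terminal exon held a region. The same was so in 1611 of the 3337 genes without a region there (48.3%), a nearly equal share. The shorter terminal exon had an exon-level score above that of the longer one in 199 of the 275 genes (72.4%). Those genes were chosen for a region in the shorter exon, and over all genes it was 827 of 3612 (22.9%).

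To set the ends of a gene side by side over equal numbers of windows, the inner stretch of the longer exon with the same number of windows was taken. It held a region in 1236 of 3612 genes (34.2%, interval 32.7 to 35.8), against 7.61% for the shorter exon. In 1127 genes only that stretch had a region, in 166 only the shorter exon, and in 109 both. The stretch is part of a longer exon and lacks its outer edge, so neither exon length nor coverage was matched. Between whole exons of 6 to 10 windows the shares were 9.75% in longer and 2.78% in shorter terminal exons. At 11 to 20 windows they were 29.8% and 16.4%.

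Shorter terminal exons also scored low more often. Windows at -1 or less, which is 50% or less of the gene's own level, made up 5.72% (interval 5.48 to 5.96) of their windows, against 2.83% in longer terminal exons and 3.63% in internal exons, and 3.62% over all measured genes. Over windows wholly inside the exon with an input of at least 5 it was 5.37% (4.87 to 5.90), against 3.04% and 4.41% (4.15 to 4.67), and 3.69% over all measured genes. At -2 or less the shares were 0.612%, against 0.124% and 0.193%, and 0.246% over all measured genes.

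In 59 exons (1.63%) every window scored -1 or less, a share that was not taken for other exon classes. Some of the 59 had little or no coverage. HOXC4, IL16, TMEM51 and TPBG had a mean of 0 in the IP and 0 in the input, so the gene medians and the added 1 alone set their scores. Among the better covered of the 59, chosen after their values were seen, was the first exon of TNFRSF8, which encodes the lymphoid activation antigen CD30. Its mean was 8.75 in the IP against 8.89 in the input, while its gene medians were 96.2 in the IP and 15.2 in the input, and its exon-level score was -2.25. SLAMF1, a receptor of activated lymphocytes, scored -1.53, with 7.43 in the IP against 6.34 in the input and gene medians of 67.0 in the IP and 15.9 in the input. In both genes the mean of the first exon lay below the gene median in each library, and further below it in the IP.

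The fourth comparison used the first base of the transcript. Of the 2569 first exons, 1757 had a single start in the RefSeq promoter table, and 785 began with A (44.7%), 774 with G (44.1%), 192 with C (10.9%) and 6 with T. Among all 22114 RefSeq genes with a single start the shares were 44.3%, 32.4%, 15.2% and 8.09%. The table's start can differ from the start of the listing used here, and from the start in these cells.

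In the outermost window, with an input of at least 1, the median score was 0.52 for A (quartiles 0.04 and 1.01, 308 exons), 0.24 for G (314 exons) and 0.13 for C (95 exons). Median coverage was 4.06 in the IP against 2.47 in the input for A, 3.33 against 2.59 for G and 2.82 against 2.54 for C. A score of 1 or more was reached by 25.6% (interval 20.9 to 30.9) of exons starting with A, 17.8% (13.8 to 22.5) with G and 7.37% (3.01 to 14.6) with C, and by 18.8% of all 5′ terminal exons of 3 or more windows.

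In exons of 6 or more windows the difference was smaller further in. At 250 nt from the edge the medians were 0.08 for A, 0.02 for G and 0.14 for C. Among exons that the rule left out, the shorter first exons of 3 to 5 windows, the outermost window had a median of 0.47 for A, 0.16 for G and 0.01 for C, and 24.2%, 11.9% and 8.78% of them reached 1. At 100 nt, as far as these exons reach, the medians were 0.31, 0.05 and -0.02. Longer terminal exons at the 5′ end had medians of 0.73 for A (56 exons), 0.45 for G (43) and 0.14 for C (26). In the outermost window the median for A was the highest of A, G and C in all 3 sets. T was left out, as only 2 shorter first exons of 6 or more windows started with it at that input.

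**Figure D5:**
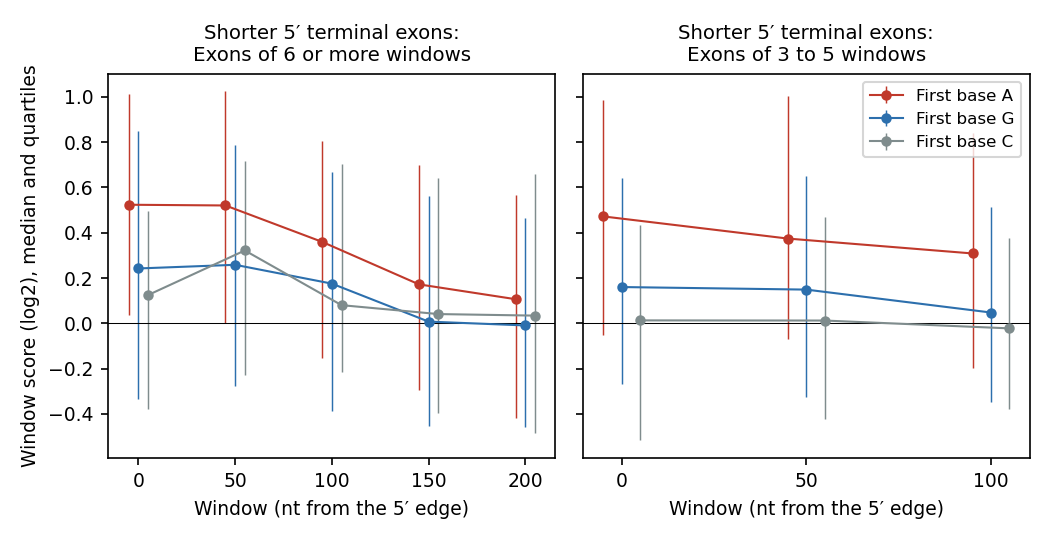
Window score (vertical axis, log2) by distance in nt from the 5′ edge for shorter first exons whose RefSeq start is A, G or C, in exons of 6 or more windows (left) and 3 to 5 windows (right), over windows with an input of at least 1, with points for medians and lines for quartiles. In the outermost window the medians are 0.52 for A, 0.24 for G and 0.13 for C at left and 0.47, 0.16 and 0.01 at right, with broad overlap of the quartiles.

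The motif GGAC, searched on the transcript's strand only in the first 50 bases, was present in 329 of the 1757 first exons with a single start (18.7%) and in 4133 of all 22114 such RefSeq starts (18.7%). With the motif, 32 of 133 outermost windows (24.1%) reached a score of 1, with a median of 0.34, and without it 111 of 586 (18.9%), with a median of 0.33. The medians were nearly equal, and the window extends beyond the bases that were searched.

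Gene groups were read against the whole, where 7.61% of member exons had a region and the median exon-level score was 0.61. Of 51 chromatin regulators, 28 had a member exon and 5 of these a region, with a median score of 0.85. These exons had a median of 10 windows, against 8 over all members, and length was not matched. CHD8, a chromodomain helicase, was highest at 4.64, with 173 in the IP against 5.89 in the input and 10 of 19 windows enriched. EED, a subunit of the Polycomb complex PRC2, scored 4.10 with 77.1 in the IP against 6.04 in the input, and TET3, ARID1B and KDM5A scored 2.44, 2.44 and 2.09. ASXL1, a partner of the deubiquitinase BAP1, was lowest at -0.86, and at 0.28 without centring on the gene, whose medians were 12.2 in the IP and 4.99 in the input. The longer terminal exon held a region in 20 of the 28, and in 1597 of 3612 (44.2%) over all member genes.

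Of 10 m6A writer genes 2 had a member exon and neither had a region. CBLL1, an E3 ligase of the writer complex, scored 0.63, and RBM15, which recruits the complex to RNA, -1.29 in a last exon whose gene medians were 55.0 in the IP and 5.85 in the input, and 1.74 without centring. Of 12 erasers and readers 8 had a member exon and 2 a region. ALKBH5, which removes m6A, scored 3.005 in a first exon of 30 windows with 87.0 in the IP against 9.11 in the input, and IGF2BP3, a reader, scored 2.96 with 25.5 in the IP against 2.73 in the input. YTHDF2, a reader that promotes decay, was lowest at -1.83, with a mean of 1.84 in the IP against 1.74 in the input and gene medians of 37.9 in the IP and 7.01 in the input, and without centring it scored 0.45.

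Of 32 B cell genes 12 had a member exon and 1 a region, with a median score of 0.78. It was BLK, a kinase downstream of the B cell receptor, at 3.02 with 18.7 in the IP against 1.30 in the input. LYN, another such kinase, was lowest at 0.08, and at -0.04 without centring. PAX5, which maintains B cell identity, scored 0.77 and CD74, the invariant chain, 0.30, with 351 in the IP against 199 in the input at its highest window.

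Among 40 genes of immediate early or short-lived transcripts 11 had a member exon and 0 a region, too few to set against the 7.61% of all members. The longer terminal exon held one in 8 of the 11, and in 1597 of 3612 (44.2%) over all member genes. MCL1, an inhibitor of apoptosis, scored 1.98 with 105.2 in the IP against 25.1 in the input, just under the threshold. MYC, whose first exon of 12 windows had means of 26.2 in the IP and 21.4 in the input, scored -0.62 there and 4.83 in its longer terminal exon. DUSP5, a phosphatase of ERK, was lowest at -1.08, and at 0.60 without centring, with gene medians of 28.4 in the IP and 8.21 in the input.

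Of 26 genes of NF-kB signalling 13 had a member exon and 0 a region. IKBKG, the regulatory subunit of the IKK complex, was highest at 1.20. TRAF1, a signalling adaptor, was lowest at -1.44, and at 0.12 without centring, with gene medians of 53.0 in the IP and 17.4 in the input. The highest window of the TRAF1 exon reaches past the exon. Of 24 splicing factors 12 had a member exon and 0 a region, and SRSF1, at 2.12 with 54.0 in the IP against 18.3 in the input, had 1 enriched window. SRSF4 was lowest at -0.59, and at 0.14 without centring. Its highest window reaches past the exon and was nearly empty, at 0.0996 in the IP against 0 in the input. Of 28 ubiquitin ligases and adaptors 13 had a member exon and 2 a region, RNF111 at 2.99 with 28.6 in the IP against 2.44 in the input and KLHL21 at 2.03. MDM2, the ligase of p53, was lowest at -0.12 in its first exon and scored 5.84 in its longer terminal exon. The highest window of that first exon was its last, which reaches past the exon, and was nearly empty, at 0.013 in the IP against 0.070 in the input.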

How the data were processed

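The authors deposited coverage of IP and input as a signal with a separate scale in each library. Per the submitters' processing notes, TopHat 1.1.3 and hg19 were used. The scale factors, the coverage program and the annotation were not given in the sources used here. Window scores are log2 values deposited by the authors, and recomputing them from coverage and gene medians differed by at most 1.67e-14. All coverage values were whole multiples of 1 step per library within 0.01 step, and an isolated read added 37 steps, from which read numbers were derived.

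Work was done in Python 3.11.15 with scipy 1.17.1, pandas 2.3.3, numpy 2.4.6 and matplotlib 3.10.9. Region calling was tested on simulated data. The longest listing per gene name was kept, 1983959 windows of 47352 names. RefSeq (GRCh38.p14) gave symbols, strand and start sequences only. Exon numbering was settled from it: the longer terminal exon was the highest exon in 91.2% of plus-strand genes and exon 1 in 90.5% of minus-strand genes.

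The members and the gene lists were chosen with earlier results of these data known. Named were the 12 highest exon-level scores with a region of 3 or more windows, the 4 longest exons, the 3 lowest of 20 or more windows with a mean input of at least 5, the 5 highest whose longer terminal exon had no region, and the highest and lowest of each list. Other named list members were picked after their values were seen. Some genes the rule names are not reported here. No test across samples is possible with 1 library per group. The alternatives were other thresholds, added numbers, centring, medians, input and length minimums, run lengths and subsets of windows or exons.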

Additional observations from a re-analysis of the deposited data

How the results depend on the processing

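The share of enriched windows in shorter terminal exons, 4.09%, was 13.9% and 1.40% at score thresholds of 1 and 3, 7.29% and 2.01% with 0.1 and 5 added, 4.48% without centring on the gene, 7.18% over windows with an input of at least 5, 6.45% in exons of 10 or more windows and 4.87% over windows wholly inside the exon. The share of exons with a region, 7.61%, was 26.2% and 2.88% at the thresholds of 1 and 3, 13.9% and 4.13% with 0.1 and 5 added, 16.9% in exons of 10 or more windows, and 9.27% and 3.74% for runs of 1 and 4 windows. Other settings moved these 2 shares within their intervals. For exon 1 the share of windows, 4.62%, was 14.9%, 1.70% and 5.16% at thresholds of 1 and 3 and without centring, and for the highest exon, 3.53%, it was 12.9% and 1.09% at those thresholds. At the 5′ end 3.56% became 7.19%, and at the 3′ end 6.39% became 9.99%, over windows wholly inside the exon with input of 5 or more. Leaving out exons listed under several names gave 8.26% at the 3′ end. Over windows whose input was both at least 5 and not below the gene median, 5.70% at 0 to 100 nt from the inner edge became 7.07%, and 8.23% at 300 to 450 nt became 15.3%. By length, the shares of 1.48%, 5.66%, 13.1% and 8.24% became 3.52%, 10.4%, 22.6% and 9.88% over well covered windows inside the exon. The highest exon-level score among exons reported by name, 5.57, was 6.28 (SLMAP) and 5.43 (WNK1) with 0.1 and 5 added and 6.03 (RBBP6) without centring. Without centring DUSP5, RBM15, TRAF1 and YTHDF2 changed sign, to 0.60, 1.74, 0.12 and 0.45. The sign of an uncentred score depends on the separate scale of each library. ASXL1, SRSF4 and LYN also changed sign, to 0.28, 0.14 and -0.04, and SRSF4 was at 0.23 with 0.1 added. By first base, the medians for A, G and C were 0.32, 0.21 and 0.23 over all windows, 0.69, 0.29 and 0.32 with an input of at least 5 and 0.41, 0.15 and -0.01 without centring, with A highest each time and the order of G and C not kept. Alternatives on windows inside the exon, shared names, the 2 longest exons, transcript ends and first base were chosen after seeing the data. The cause of these shifts was not tested. No paired analysis was possible because each group has 1 library, and no library could be left out. Depth limits what can be said of the 25.2% of exons with a mean input under 1.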
